A study of Mus musculus with 6 samples.

Results

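The 40 vascular endothelial genes described here were measured in RNA from sorted cortical thymic epithelial cells (cTEC), among 39179 genes in the count table. They are pan-endothelial genes and genes of arterial, venous, tip cell and lymphatic endothelium, each found in the table by its gene symbol. The list was chosen by the difference of these genes between the 2 cTEC subsets of this same dataset, so their values in that comparison are a description, and no test of them is read as support. All 40 passed the filter on low counts, among 15576 genes that did; a gene that is high in 1 subset can pass through that subset alone. The 40 were counted by role as 10 receptors, 16 junction and surface proteins, 5 transcription factors, 4 secreted proteins and 5 intracellular proteins.

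The study compared cTEC with and without signal from a reporter of the chemokine gene *Cxcl12*. Both groups came from untreated mice on a C57BL/6 background, 10 weeks of age, that carry the Cxcl12::DsRed knockin reporter, and both were sorted as CD45-EpCAM1+UEA1-Ly51+ cells. They were parted by the reporter: Cxcl12DsRed- cTEC were DsRed negative and Cxcl12DsRed+ cTEC were DsRed positive. Each of 3 experiments, A, B and C, gave 1 library of each subset, 6 in all. No endothelial marker is named in this gate, the number of mice behind a library is not given in the sources used here, and the p-values below reflect how far these 6 libraries vary, which may be technical in part.

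Blood vessels are lined by endothelial cells, which hold together through VE-cadherin and claudin junctions and read growth signals through the VEGF and TIE receptor kinases. Their identity rests on transcription factors of the ETS and SOXF families. In the thymus, vessels let progenitors in and mature T cells out, mostly through venules in the inner thymus, while capillaries supply the cortex.

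Counts in genes ranged from 34574900 to 51042679 per library. Levels are given below as CPM, the counts of a gene scaled to a common library size by TMM, in the order of experiments A, B and C. Reporter counts were 580 to 1129 in the Cxcl12DsRed- libraries and 45495 to 79903 in the Cxcl12DsRed+ libraries, in accord with the sort labels. *Cxcl12* itself was lower but present in Cxcl12DsRed- cTEC, at 144, 204 and 287 CPM against 893, 1216 and 1473.5 CPM in Cxcl12DsRed+ cTEC. The cTEC genes *Psmb11* and *Prss16* were present in every library, with *Psmb11* at 17.99, 51.2 and 13.6 CPM in Cxcl12DsRed- and 528, 1043 and 524 CPM in Cxcl12DsRed+ cTEC. A single library stood apart for the endothelial genes, Cxcl12DsRed+ C, which held the highest value of the 6 for 38 of the 40. Over all genes tested, it held the highest value for 18.9%.

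The defining endothelial genes *Cdh5* and *Pecam1* were present in all 3 Cxcl12DsRed+ libraries. *Cdh5*, which encodes VE-cadherin, stood at 1.11, 0.365 and 0.271 CPM in the Cxcl12DsRed- libraries and at 13.8, 25.8 and 171 CPM in the Cxcl12DsRed+ libraries. *Pecam1*, which encodes the surface antigen CD31, stood at 13.1, 1.67 and 3.37 CPM and at 135, 124 and 927 CPM. For both genes the lowest Cxcl12DsRed+ library lay above the highest Cxcl12DsRed- library, and Cxcl12DsRed+ C lay far above A and B. Of other defining genes, given below, *Kdr* and *Erg* were also free of overlap. *Tek* and *Vwf* were not, with Cxcl12DsRed- A above Cxcl12DsRed+ A and B. The lymphatic marker *Lyve1* did not exceed 1.65 CPM in any library. In sorted bulk RNA, fewer cells that hold these transcripts and less of them per cell cannot be told apart. Which cells in the gate held them was not tested.

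The 250 bases before the start site are shown for *Emcn*, *Rbp7*, *Esm1* and *Dysf*, which are among the genes with the smallest p-values in the fit across all genes, and for *Kdr*, a defining receptor. The sequences are from RefSeq on GRCm38.p6, the build of mm10, and run 5′ to 3′ on the gene's own strand. Capitals mark AGGAAG or CCGGAA, cores that ETS factors are known to bind, on either strand. The windows are chr3:137340828-137341077, plus strand for *Emcn*, chr4:149454969-149455218, minus strand for *Rbp7*, chr13:113209409-113209658, plus strand for *Esm1*, chr6:84008348-84008597, plus strand for the first *Dysf* start, chr6:84019136-84019385, plus strand for the second, and chr5:75978456-75978705, minus strand for *Kdr*.
Emcn: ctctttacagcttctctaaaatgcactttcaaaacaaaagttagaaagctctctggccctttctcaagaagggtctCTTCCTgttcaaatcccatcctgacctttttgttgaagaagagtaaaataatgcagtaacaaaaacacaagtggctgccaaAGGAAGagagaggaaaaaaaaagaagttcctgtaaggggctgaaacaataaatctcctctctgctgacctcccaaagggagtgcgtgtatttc
Rbp7: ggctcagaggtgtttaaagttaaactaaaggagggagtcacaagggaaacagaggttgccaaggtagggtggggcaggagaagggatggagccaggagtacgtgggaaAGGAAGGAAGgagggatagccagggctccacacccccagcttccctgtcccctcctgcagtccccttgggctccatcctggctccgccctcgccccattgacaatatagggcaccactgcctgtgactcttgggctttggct
Esm1: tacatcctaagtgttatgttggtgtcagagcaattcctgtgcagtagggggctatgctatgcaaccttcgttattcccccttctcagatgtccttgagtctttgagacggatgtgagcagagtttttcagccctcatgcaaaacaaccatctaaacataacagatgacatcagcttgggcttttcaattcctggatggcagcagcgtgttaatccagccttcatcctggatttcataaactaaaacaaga
Dysf, first start: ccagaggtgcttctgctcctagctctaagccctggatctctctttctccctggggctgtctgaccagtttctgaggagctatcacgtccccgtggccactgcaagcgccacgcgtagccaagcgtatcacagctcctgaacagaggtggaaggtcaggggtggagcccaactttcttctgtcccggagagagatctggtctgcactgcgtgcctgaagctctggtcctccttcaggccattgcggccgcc
Dysf, second start: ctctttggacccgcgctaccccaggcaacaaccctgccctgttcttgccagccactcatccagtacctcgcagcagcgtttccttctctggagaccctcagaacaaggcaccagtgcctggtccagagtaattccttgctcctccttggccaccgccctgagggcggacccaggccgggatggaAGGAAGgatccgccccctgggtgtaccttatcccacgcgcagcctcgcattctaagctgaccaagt
Kdr: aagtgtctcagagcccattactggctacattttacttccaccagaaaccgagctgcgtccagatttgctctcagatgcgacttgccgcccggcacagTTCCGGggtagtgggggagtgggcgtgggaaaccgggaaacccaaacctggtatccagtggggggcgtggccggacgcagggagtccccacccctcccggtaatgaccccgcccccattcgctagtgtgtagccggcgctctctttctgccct

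RefSeq promoters were matched for 23 of the 40 genes, with 29 start sites. AGGAAG was found before 16 of these 29 starts, 55.2%, and before 29.5% of 32851 promoters of all genes in windows of the same length. CCGGAA was found before 1 of them, that of *Kdr*, 3.45% against 12.0%. The SOX cores ACAATG or ACAAAG were found before 20.7% against 25.2%, the GATA core AGATAA before 6.90% against 9.99%, the TATA box TATAAA before 10.3% against 12.4%, and GACGC, the core bound by FOXN1, before 24.1% against 22.6%. The same starts can share a gene, as those of *Dysf* do, and the cores were searched on both strands without regard to overlap. The letters are a description of these windows and no measure of binding. *Pecam1*, *Cdh5*, *Cd93* and *Arhgef15* are among the genes without an entry.

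**Figure D1:**
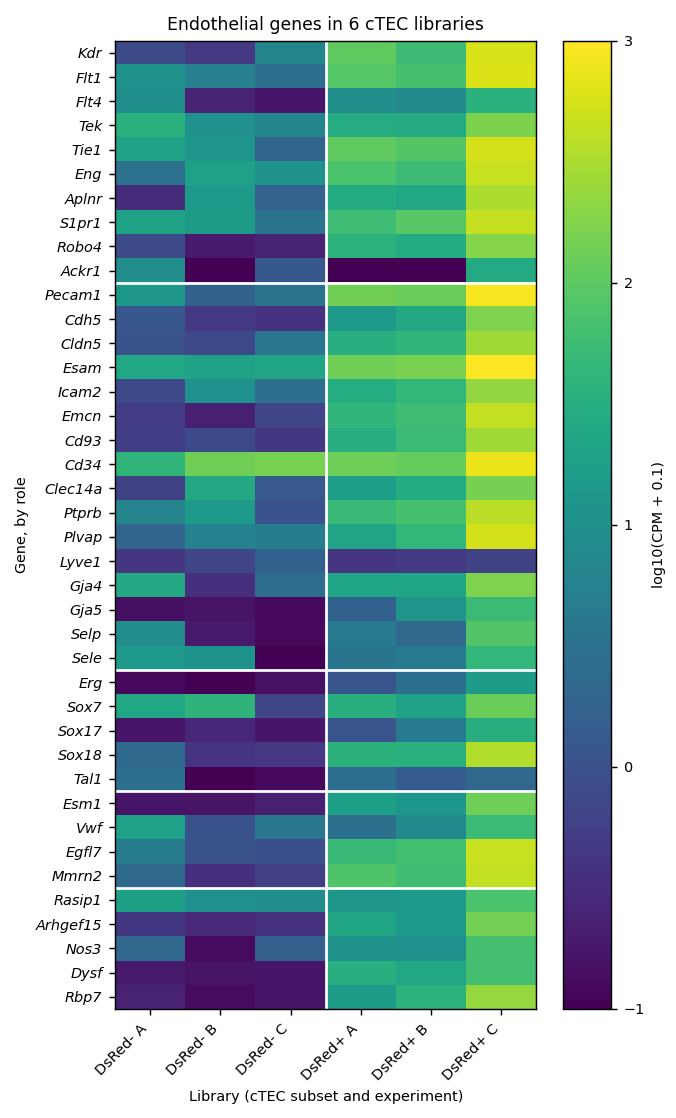
Level of each of the 40 endothelial genes (rows, parted by role with white lines in the order receptors, junction and surface, transcription factors, secreted, intracellular) in the 6 libraries (columns), as log10 of CPM plus 0.1. The Cxcl12DsRed+ C column is the brightest in 38 rows, and *Pecam1* reaches 927 CPM there.

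Taking the 40 genes as a whole, all but *Lyve1* had a lower fitted level in Cxcl12DsRed- cTEC. Their median log2 fold change, Cxcl12DsRed- over Cxcl12DsRed+, was −4.54, with a range from −10.12 for *Rbp7* to 1.12 for *Lyve1*, beside a median of 0.02 over all genes tested. In 27 of the 40, every Cxcl12DsRed+ library lay above every Cxcl12DsRed- library, a pattern seen in 9.32% of all genes tested, and in none of the 40 did every Cxcl12DsRed- library lie above, which 9.73% of genes did. The Cxcl12DsRed+ library lay above the Cxcl12DsRed- library of its own experiment in all 3 experiments for 28 of the 40, and for 17.5% of all genes tested. Because the list was chosen on this difference, nothing is read from these shares. Without Cxcl12DsRed+ C, 27 of the 40 were free of overlap, beside 14.2% of all genes tested. Leaving out a library cannot lower such a count, so nothing is read from it either. The median log2 fold change without that library was −3.10.

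The size of the difference was not alike in the 3 experiments. Of the 40 genes, 30 were higher in Cxcl12DsRed+ cTEC in experiment A, 35 in B and 39 in C. The median log2 ratio of Cxcl12DsRed+ over Cxcl12DsRed-, on CPM plus 0.1, was 3.29 in A, 3.94 in B and 7.54 in C. Over all genes tested these medians were 0, 0.03 and −0.02. The summed level of the 40 genes was 328, 362 and 257 CPM in the Cxcl12DsRed- libraries and 1532, 1556 and 11036 CPM in the Cxcl12DsRed+ libraries. That sum was 4.67, 4.30 and 42.9 times as high in Cxcl12DsRed+ as in Cxcl12DsRed- cTEC of the same experiment. By this sum, experiments A and B were close to each other, and C differed from both. Without *Cd34* the ratios were 4.89, 6.43 and 104.1. Single genes could differ widely between A and B. *Gja4* was 0.849 times as high in Cxcl12DsRed+ in A and 96.7 times in B, and *Aplnr* 124 and 1.69 times.

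**Figure D2:**
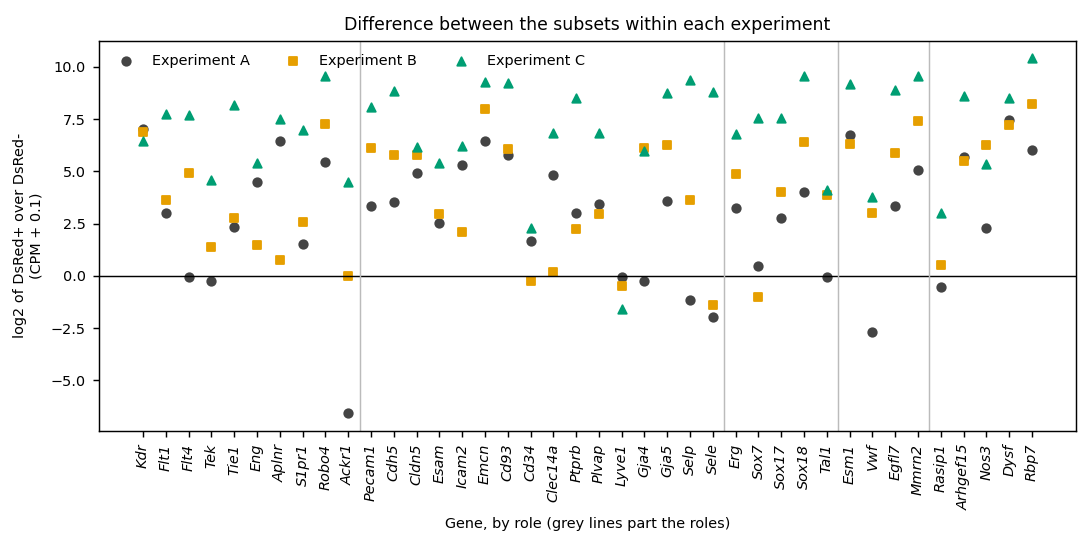
Log2 ratio of Cxcl12DsRed+ over Cxcl12DsRed- in CPM plus 0.1 (vertical axis) for each of the 40 genes, with 1 point per experiment. Most points lie above 0, with medians of 3.29 in A, 3.94 in B and 7.54 in C. In experiment A, 10 of the 40 genes lie below 0, among them *Ackr1*, *Vwf*, *Sele* and *Selp*.

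The quasi-likelihood test of edgeR, with Benjamini-Hochberg adjustment over all genes tested at 0.05, called 6 of the 40 lower in Cxcl12DsRed- cTEC, where it called 0.173% of all genes in that direction. These were *Emcn*, *Cd93*, *Esm1*, *Arhgef15*, *Dysf* and *Rbp7*. None of the 40 was called higher, where 0.449% of all genes were, and none reached an unadjusted p under 0.05 in that direction, where 7.02% of all genes did. The likelihood ratio test of edgeR called 26 of the 40 lower, beside 2.12% of all genes, and DESeq2 called 24, beside 2.08% of the 23188 genes it was run on. That share counts 6300 genes to which DESeq2 gave no adjusted p and which could not be called. With the experiment as a replicate block the quasi-likelihood test called 5, beside 0.135% of all genes, namely *Emcn*, *Esm1*, *Dysf*, *Kdr* and *Cldn5*, so *Cd93*, *Arhgef15* and *Rbp7* lost the call and the other two gained it. Without Cxcl12DsRed+ C it called none of the 40, and it called 0% of all genes lower in Cxcl12DsRed- cTEC. In that fit 25 of the 40 had an unadjusted p under 0.05, all of them lower in Cxcl12DsRed- cTEC. Of all genes, 4.51% did so in that direction. Leaving out any other single library left none called, of the 40 or of all genes, except without Cxcl12DsRed- C. There *Dysf* alone of the 40 was called, beside 0.115% of all genes called lower. In these fits 26 to 31 of the 40 had an unadjusted p under 0.05, all lower in Cxcl12DsRed- cTEC. Of all genes, 3.74% to 7.85% did so in that direction.

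The receptors are led here by those for VEGF, the main growth factor of vessels. *Kdr* (VEGFR2, ENSMUSG00000062960, chr5:75932827-75978458), the main signalling receptor for VEGF, gave 0.716, 0.365 and 6.59 CPM in the Cxcl12DsRed- libraries and 106, 55.1 and 578 CPM in the Cxcl12DsRed+ libraries. *Flt1*, the decoy-like VEGFR1, gave 11.02, 5.42 and 2.75 CPM and 89.1, 68.8 and 615 CPM. In neither did the subsets overlap. *Flt4*, the VEGFR3 of lymphatic and sprouting endothelium, gave 9.72, 0.152 and 0.0738 CPM and 9.47, 7.51 and 35.6 CPM, and its Cxcl12DsRed- A library lay above the Cxcl12DsRed+ libraries of A and B.

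The TIE receptors differed from each other. *Tie1*, an orphan receptor of the angiopoietin system, stood at 20.4, 12.4 and 1.82 CPM in Cxcl12DsRed- and 104, 85.6 and 546 CPM in Cxcl12DsRed+ cTEC, without overlap. *Tek*, which encodes the angiopoietin receptor TIE2, stood at 35.2, 10.6 and 6.74 CPM and 29.8, 27.4 and 164 CPM. For *Tek* the Cxcl12DsRed- A library lay above Cxcl12DsRed+ A and B, so that the separation rested on Cxcl12DsRed+ C.

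Of the other receptors, *Eng*, the TGF-beta co-receptor endoglin, gave 3.16, 19.6 and 10.9 CPM against 74.4, 55.5 and 459 CPM. *S1pr1*, the receptor for sphingosine 1-phosphate in endothelium and in T cell exit, gave 20.2, 15.1 and 3.37 CPM against 57.7, 91.3 and 439.7 CPM. *Robo4*, the vessel-stabilising Roundabout receptor, gave 0.762, 0.0913 and 0.148 CPM against 37.8, 29.3 and 184 CPM. All 3 were free of overlap, and *Robo4* had the lowest Cxcl12DsRed- levels of them. *Aplnr*, the apelin receptor of veins and sprouts, gave 0.231, 14.6 and 1.72 CPM against 28.5, 24.8 and 326 CPM, also without overlap. *Ackr1*, the chemokine-binding receptor of venules, had 0 counts in Cxcl12DsRed- B, Cxcl12DsRed+ A and Cxcl12DsRed+ B, and stood at 9.44 CPM in Cxcl12DsRed- A, 1.18 in Cxcl12DsRed- C and 28.2 in Cxcl12DsRed+ C. Its presence in single libraries followed neither subset.

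Of the junction genes, *Cldn5*, the tight junction protein claudin-5, gave 0.97, 0.669 and 3.59 CPM in Cxcl12DsRed- and 32.2, 42.3 and 268 CPM in Cxcl12DsRed+ cTEC. *Esam*, an adhesion molecule at endothelial contacts, was even across the Cxcl12DsRed- libraries, with 23.7, 20.4 and 23.4 CPM, and gave 136, 157 and 997 CPM in Cxcl12DsRed+ cTEC. *Icam2*, a ligand for leukocyte integrins, gave 0.67, 10.6 and 2.93 CPM and 30.1, 45.2 and 221 CPM. None of the 3 overlapped. *Ptprb*, the phosphatase VE-PTP that acts on VE-cadherin and TIE2, gave 6.40, 14.6 and 0.935 CPM and 52.1, 69.7 and 381 CPM, and it too was free of overlap. *Gja4* and *Gja5* encode the arterial connexins 37 and 40; *Gja4* gave 25.9, 0.243 and 2.63 CPM and 22.02, 23.5 and 171 CPM, with overlap because of Cxcl12DsRed- A. *Gja5* had 2, 2 and 1 counts in the Cxcl12DsRed- libraries, or 0.0462, 0.0609 and 0.0246 CPM, and gave 1.66, 12.1 and 53.3 CPM in Cxcl12DsRed+ cTEC.

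The surface proteins ranged from wide separation of the subsets to overlap. *Emcn* (ENSMUSG00000054690, chr3:137341067-137432185), the sialomucin endomucin of capillaries and veins, gave 0.393, 0.122 and 0.59 CPM in the Cxcl12DsRed- libraries and 42.8, 56.7 and 422 CPM in the Cxcl12DsRed+ libraries, a log2 difference of −8.85 for Cxcl12DsRed- over Cxcl12DsRed+ (SE 1.30, n = 3 and 3). *Cd93* (ENSMUSG00000027435, chr2:148436640-148443563), a C-type lectin of endothelial adhesion, gave 0.462, 0.7 and 0.344 CPM and 31.2, 54.1 and 265 CPM. Every Cxcl12DsRed- library lay under 1 CPM for both. *Clec14a*, a related lectin that binds *Mmrn2*'s product, gave 0.508, 25.9 and 1.21 CPM and 16.9, 29.2 and 151 CPM, with Cxcl12DsRed- B above Cxcl12DsRed+ A. *Plvap*, the diaphragm protein of fenestrated capillaries and venules, gave 1.89, 5.60 and 4.75 CPM and 21.6, 44.8 and 552 CPM, without overlap.

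*Cd34*, a sialomucin of endothelium that other mesenchymal and progenitor cells also carry, held the most counts of the 40 in each Cxcl12DsRed- library, with no regard to length, at 41.1, 137 and 159 CPM. It gave 130.2, 114 and 772 CPM in the Cxcl12DsRed+ libraries, so that in experiment B it was lower in Cxcl12DsRed+ than in Cxcl12DsRed- cTEC. Without *Cd34*, the summed level of the other genes was 287, 224 and 98.6 CPM in Cxcl12DsRed- and 1401, 1442 and 10265 CPM in Cxcl12DsRed+ cTEC. The selectins of activated venules, *Selp* and *Sele*, overlapped between the subsets. *Selp* gave 9.26, 0.0913 and 0.0246 CPM and 4.12, 2.25 and 81.4 CPM, and *Sele* gave 14.02, 11.4 and 0 CPM and 3.52, 4.28 and 44.2 CPM. Both stood higher in Cxcl12DsRed- A than in Cxcl12DsRed+ A and B, and both were highest in Cxcl12DsRed+ C. *Lyve1*, the hyaluronan receptor of lymphatic endothelium, gave 0.323, 0.578 and 1.65 CPM and 0.302, 0.375 and 0.49 CPM and so stayed low in all 6 libraries.

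The transcription factors divided in the same way. *Erg*, an ETS factor that maintains endothelial identity, had 1, 0 and 2 counts in the Cxcl12DsRed- libraries and gave 1.08, 2.82 and 16.2 CPM in the Cxcl12DsRed+ libraries. *Sox17*, the SOXF factor of arteries, gave 0.0693, 0.183 and 0.0738 CPM and 1.04, 4.46 and 32.4 CPM. *Sox18* gave 2.19, 0.304 and 0.369 CPM and 36.5, 34.5 and 351 CPM, the highest level per length of the 5 factors. None of these 3 overlapped. *Sox7*, the third SOXF factor, gave 24.04, 39.98 and 0.59 CPM and 33.3, 19.96 and 128 CPM, and Cxcl12DsRed- A and B lay above Cxcl12DsRed+ B. *Tal1*, a factor shared by endothelial and blood lineages, stayed between 0 and 2.82 CPM in the 6 libraries, with its highest value in Cxcl12DsRed- A.

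Of the secreted proteins, *Esm1* (ENSMUSG00000042379, chr13:113209659-113218098), the proteoglycan endocan of tip cells, gave 0.0693, 0.0609 and 0.123 CPM in Cxcl12DsRed- and 18.03, 12.7 and 131 CPM in Cxcl12DsRed+ cTEC. The 3 Cxcl12DsRed- values rest on 3, 2 and 5 counts. *Egfl7*, a matrix protein of growing vessels, gave 4.87, 0.943 and 0.861 CPM and 49.6, 62.1 and 463 CPM. *Mmrn2*, the multimerin of the vessel matrix, gave 2.31, 0.243 and 0.467 CPM and 80.1, 58.7 and 423 CPM. All 3 were free of overlap. *Vwf*, the clotting factor stored in endothelial Weibel-Palade bodies, gave 19.2, 0.913 and 3.84 CPM and 2.87, 7.95 and 53.6 CPM, and Cxcl12DsRed- A lay above Cxcl12DsRed+ A and B.

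The intracellular group held further members with few counts in Cxcl12DsRed- cTEC. *Dysf* (ENSMUSG00000033788, chr6:84008590-84211060), the membrane repair protein dysferlin that muscle also makes, had 4, 2 and 3 counts, or 0.0924, 0.0609 and 0.0738 CPM, in the Cxcl12DsRed- libraries and gave 33.9, 23.8 and 62.9 CPM in the Cxcl12DsRed+ libraries. *Rbp7* (ENSMUSG00000028996, chr4:149449687-149454978), a retinol-binding protein of capillary endothelium, had 6, 1 and 3 counts and gave 15.4, 38.9 and 235 CPM. The 9 *Dysf* counts of the 3 Cxcl12DsRed- libraries have an exact Poisson interval from 4.12 to 17.1, which covers counting error only. *Arhgef15* (ENSMUSG00000052921, chr11:68943155-68957480), an exchange factor for RhoA in endothelium, gave 0.346, 0.213 and 0.271 CPM and 22.96, 13.9 and 143 CPM. *Nos3*, the endothelial nitric oxide synthase, gave 2.10, 0.0304 and 1.55 CPM and 10.8, 10.01 and 66.7 CPM. *Rasip1*, a RAS-interacting protein needed for vessel lumens, gave 18.7, 9.95 and 9.15 CPM and 12.9, 14.1 and 74.8 CPM, and was the only intracellular member of the 5 whose subsets overlapped.

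Cxcl12DsRed+ C held more of nearly every one of the 40 genes than Cxcl12DsRed+ A and B. The ratio of Cxcl12DsRed+ C to the mean of A and B had a median of 7.14 over the 39 genes with a count in A or B, with its middle 50% from 5.89 to 8.49. Over all genes tested its median was 0.966. For 30 of the 40 genes, *Ackr1* with its 0 counts in A and B included, Cxcl12DsRed+ C was at least 5 times both A and B, which was so for 3.46% of all genes tested. The highest ratios were those of *Selp* at 25.5, *Plvap* at 16.6, *Aplnr* at 12.2, *Sox17* at 11.8 and *Sele* at 11.3. The lowest were those of *Tal1* at 1.01, *Lyve1* at 1.44 and *Dysf* at 2.18. These ratios rest on 1 library against 2 and have no test.

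The 40 genes kept nearly the same order of levels in the 3 Cxcl12DsRed+ libraries. Over the 40 genes, Pearson's r of log2 of CPM plus 0.1 was 0.836 to 0.941 between Cxcl12DsRed+ libraries, 0.520 to 0.663 between Cxcl12DsRed- libraries and 0.158 to 0.484 between libraries of different subsets. These are correlations across genes, which are no independent replicates. Within the Cxcl12DsRed- libraries, the highest value was in A for 23 genes, in B for 10 and in C for 7. Among the genes with a count in all 3 of them, the highest Cxcl12DsRed- library was at least 10 times the lowest in 12, as for *Gja4*, *Sox7*, *Clec14a* and *Aplnr* above, and in 10 genes all 3 Cxcl12DsRed- libraries stayed under 1 CPM.

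**Figure D3:**
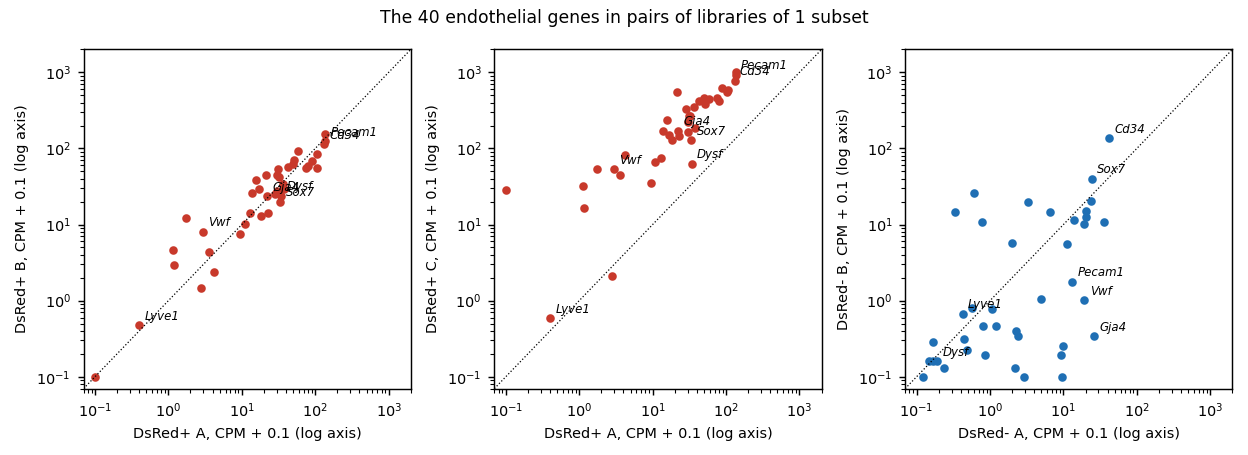
Levels of the 40 genes in Cxcl12DsRed+ A and B (left), Cxcl12DsRed+ A and C (middle) and Cxcl12DsRed- A and B (right), in CPM plus 0.1 on log axes, with the line of equal level dotted. The points of the middle panel run along a line above the dotted one, with a median ratio of 7.14 for C over the mean of A and B, and those of the right panel scatter widely, with r of 0.526.

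By vessel type, the 19 genes listed as pan-endothelial gave 16 without overlap between the subsets and with Cxcl12DsRed+ higher, where 9.32% of all genes tested were so; as above, nothing is read from this. Of the 3 arterial genes, *Gja5* and *Sox17* were free of overlap, and of the 5 venous genes only *Aplnr* was. The summed venous level was 52.1, 27.0 and 6.76 CPM in Cxcl12DsRed- and 39.0, 39.3 and 533 CPM in Cxcl12DsRed+ cTEC, so that only experiment C showed a wide gap. The arterial sum was 26.0, 0.487 and 2.73 CPM in Cxcl12DsRed- and 24.7, 40.1 and 256 CPM in Cxcl12DsRed+ cTEC. The tip cell gene *Esm1* was free of overlap, and neither lymphatic gene was. The defining lymphatic factor *Prox1* stood at 5.27, 2.25 and 0.689 CPM and 0.0378, 1.36 and 0.0258 CPM, *Reln* at 0.0231, 0.0304 and 0.0246 CPM and 0, 0.0417 and 0.0258 CPM, and *Pdpn*, which epithelial cells and fibroblasts also express, at 111, 139 and 183 CPM and 147, 108 and 81.9 CPM.

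Levels were compared between genes per length, as CPM per kilobase of the union of annotated exons. By the mean of the Cxcl12DsRed+ libraries, *Esam* led with 150.0, then *Rbp7* with 134, *Plvap* with 104, *Sox18* with 86.9 and *Cldn5* with 80.6. At the other end stood *Lyve1* with 0.133, *Tal1* with 0.461, *Vwf* with 1.34 and *Erg* with 1.93. These means are set largely by Cxcl12DsRed+ C. Over Cxcl12DsRed+ A and B alone, *Esam* with 51.0 and *Rbp7* with 37.8 still led, followed by *Cldn5* with 26.3, *S1pr1* with 24.5 and *Sox18* with 21.9, while *Plvap*, at 10.9 and 22.5 in A and B and 278 in C, was not among the first 5.

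**Figure D4:**
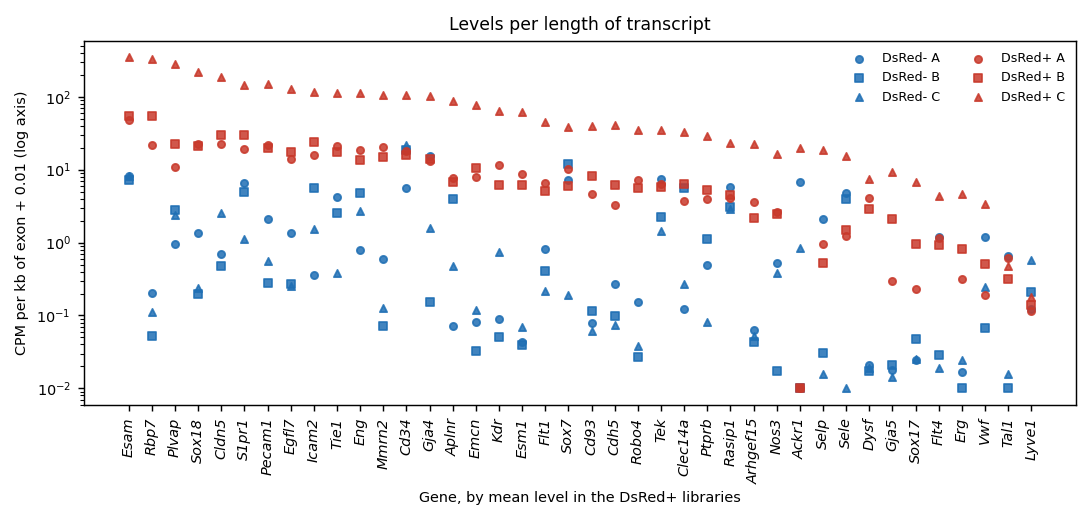
CPM per kilobase of exon plus 0.01 (log axis) of the 40 genes, in order of their mean in the Cxcl12DsRed+ libraries, with blue for Cxcl12DsRed- and red for Cxcl12DsRed+ and a symbol per experiment. Cxcl12DsRed+ C is the top point for 38 of the 40 genes, and the order runs from *Esam*, with a mean of 150.0, to *Lyve1*, with 0.133.

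A further 71 endothelial genes outside the 40, a list also drawn up with earlier results known, were read in the same fit, and 67 of them were tested. The quasi-likelihood test called 1 lower and none higher in Cxcl12DsRed- cTEC. That gene was *Jam2*, a junctional adhesion molecule, at 1.39, 1.83 and 2.98 CPM against 63.4, 93.5 and 528 CPM, a log2 fall of 6.79 (SE 1.02, adjusted p = 0.0495), a call lost when any 1 library was left out. Their log2 fold changes had a median of −1.49 over the 67 tested, and in 31 of them every Cxcl12DsRed+ library lay above every Cxcl12DsRed- library, while 2 showed the reverse, beside 9.32% and 9.73% of all genes tested. At an unadjusted p under 0.05, 33 were lower and 1 was higher, beside 4.8% and 7.02% of all genes. The likelihood ratio test called 28 lower and 1 higher, beside 2.12% and 3.53%, and DESeq2 called 24 and 1, beside 2.08% and 4.05%. With the replicate block 3 were called lower, *Jam2*, *Mef2c* and *Podxl*.

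Of the 28 pan-endothelial and capillary genes of this further list, 20 were free of overlap with Cxcl12DsRed+ higher. So were 6 of 18 transcription factors and 5 of 25 signalling genes, beside 9.32% of all genes tested. The 4 lowest fold changes, Cxcl12DsRed- over Cxcl12DsRed+, were those of *Myct1*, an endothelial target of ETS factors, at −8.41 on the log2 scale, *Bcl6b*, a transcriptional repressor found in endothelium, at −8.31, *Podxl*, the sialomucin podocalyxin, at −7.17, and *Cd36*, the fatty acid carrier of capillaries, at −6.90. *Cd36* stood at 11.6, 1.80 and 8.31 CPM in Cxcl12DsRed- and 199, 246 and 2153 CPM in Cxcl12DsRed+ cTEC. None of these 4 passed the test, with adjusted p-values of 0.0568, 0.0502, 0.0568 and 0.0827 in edgeR's quasi-likelihood test. At the other end were *Bmx*, a kinase of arterial endothelium, *Prox1*, and the growth factor genes *Pgf* and *Vegfa*. *Bmx* stood at 343, 60.9 and 50.2 CPM in Cxcl12DsRed- and 3.95, 0.375 and 16.8 CPM in Cxcl12DsRed+ cTEC, with an adjusted p of 0.263 in the same edgeR test. *Vegfa*, the ligand of *Kdr*'s product, stood at 17.3, 15.3 and 13.7 CPM and 5.97, 12.3 and 6.42 CPM, and *Pgf*, the ligand of the *Flt1* receptor, at 2.47, 22.5 and 113 CPM and 8.18, 13.2 and 38.4 CPM.

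Among genes of other cell types, several pericyte genes and the summed red cell genes were also highest in Cxcl12DsRed+ C. The 12 pericyte and smooth muscle genes, cells that wrap vessels, summed to 1072, 1034 and 803 CPM in Cxcl12DsRed- and 1146, 1047 and 1934 CPM in Cxcl12DsRed+ cTEC. Within them the pericyte genes *Rgs5*, *Pdgfrb*, *Kcnj8* and *Abcc9* were 6.61, 6.61, 10.2 and 6.85 times as high in Cxcl12DsRed+ C as in the mean of A and B, while the contractile genes *Acta2* and *Tagln*, the most abundant of the list, were 0.68 and 0.426 times as high and made up most of the sum in A and B. *Kcnj8*, a potassium channel gene of pericytes, stood at 0.139, 0.73 and 7.08 CPM in Cxcl12DsRed- and 17.7, 18.8 and 185 CPM in Cxcl12DsRed+ cTEC, and *Abcc9*, which encodes its regulatory partner, at 2.10, 0.0609 and 2.90 CPM and 3.06, 23.2 and 89.8 CPM. Those were the 2 genes of the 12 free of overlap, with Cxcl12DsRed+ higher, beside 9.32% of all genes tested. Neither passed edgeR's quasi-likelihood test, with adjusted p-values of 0.3 and 0.304. The 6 red cell genes, led by *Hba-a1* and *Hbb-bs*, summed to 219, 11.1 and 1932 CPM in Cxcl12DsRed- and 137, 288 and 3364 CPM in Cxcl12DsRed+ cTEC, so they were highest in experiment C in both subsets. The 12 epithelial and cTEC genes, led by *Krt8* and *Krt18*, summed to 12887, 11495 and 8697 CPM in Cxcl12DsRed- and 17523, 19839 and 10842 CPM in Cxcl12DsRed+ cTEC.

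*Epcam*, the epithelial gene of the sort, stood at 179, 184 and 229 CPM in Cxcl12DsRed- and 73.8, 131 and 63.6 CPM in Cxcl12DsRed+ cTEC. *Ptprc*, which encodes CD45, stood at 23.5, 8.55 and 4.03 CPM and 8.51, 15.6 and 0.618 CPM, lowest in Cxcl12DsRed+ C. The 13 thymocyte genes, led by *Lck* and *Cd8b1*, summed to 111, 111 and 59.6 CPM in Cxcl12DsRed- and 103, 365 and 46.7 CPM in Cxcl12DsRed+ cTEC. The 9 fibroblast genes, led by *Dcn* and *Col3a1*, summed to 3890, 3746 and 5170 CPM and to 1749, 1878 and 1129 CPM, higher in every Cxcl12DsRed- library. *Dcn* made up most of each sum, at 3469, 3092 and 3118 CPM and 1491, 1512 and 633 CPM. Only 2 of the 9 were free of overlap with Cxcl12DsRed- higher, beside 9.73% of all genes tested. *Dpt* in A and B and *Pi16* in B were higher in Cxcl12DsRed+ cTEC. The 8 myeloid genes, led by *Lyz2* and *Itgam*, summed to 518, 852 and 142 CPM and to 28.9, 55.3 and 113 CPM. *Lyz2* made up most of each sum, and *Mertk* was higher in Cxcl12DsRed+ cTEC in all 3 experiments. The B cell genes *Cd79a* and *Ms4a1* and the 6 platelet genes, led by *Itga2b* and *Pf4*, summed to at most 3.33 and 15.99 CPM in any library. The part of these cell types, of experiment C and of the single library Cxcl12DsRed+ C in the difference between the subsets was not tested. In experiments A and B alone, without any library of C, 27 of the 40 genes were free of overlap, beside 24.1% of all genes tested. Fewer libraries cannot lower this count, and the list was chosen on this difference, so nothing is read from it.

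**Figure D5:**
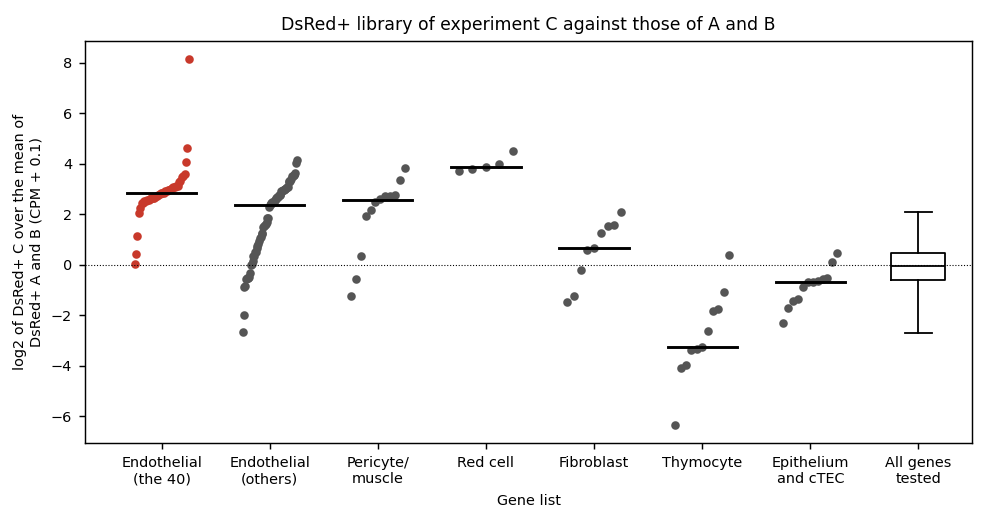
Log2 ratio of Cxcl12DsRed+ C over the mean of Cxcl12DsRed+ A and B, in CPM plus 0.1, for each gene of 7 lists (points, bars at the medians) and for all genes tested (box from the first to the third quartile, whiskers at the 5th and 95th percentiles). The endothelial, pericyte and red cell genes lie mostly above 0, the thymocyte and epithelial genes mostly below, and the top endothelial point is *Ackr1*, with 0 counts in A and B.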

How the data were processed

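The authors made libraries of polyA RNA from FACS-sorted cTEC with the SMARTer Ultra Low Input RNA Kit. Reads were trimmed (Trimmomatic 0.36), mapped to mm10 (STAR 2.7.3a) and assigned to genes (HTSeq), and the authors deposited whole-number counts per gene with no normalisation. Neither the annotation release nor whether strand was used is stated, so reads of overlapping or antisense genes cannot be told apart. Of 39277 entries, 92 spike-in names without counts, 5 HTSeq summaries and the DsRed reporter entered neither library sizes nor tests. Relative to the counts in genes, 5.87% to 9.35% of reads fell in no gene, 1.21% to 1.38% were ambiguous and 5.61% to 9.07% mapped to several places. Symbols came from GENCODE M21 on GRCm38, and each of the 40 endothelial genes had 1 ID.

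Counts were fitted with edgeR 4.0.16 in R 4.3.3: filterByExpr (minimum count 10), TMM, the quasi-likelihood test with prior count 0.125, and Benjamini-Hochberg adjustment over 15576 genes with a threshold of 0.05. Each SE given is the absolute log2 fold change divided by the square root of the test's F statistic, not an estimate of the fit itself. The members and lists were chosen with earlier results of these data known. Every library's value is given for members whose mean reached 5 CPM in either subset and for *Pecam1*, *Cdh5*, *Kdr*, *Tek*, *Erg*, *Lyve1* and *Vwf*. Of the further endothelial list, called genes and the 4 lowest and 4 highest fold changes are named, and of the other lists the 2 most abundant genes and *Ptprc*. Other genes, such as *Rgs5*, *Epcam* and *Psmb11*, were named after their values were seen. Depth was 34574900 to 51042679 counts in genes, and intervals cover counting error only because PCR copies are not separate molecules. The experiment letters in the labels mark a shared experiment and pair the libraries. Within experiments, deviations from the subset means correlated across genes at 0.0168 (A), 0.0821 (B) and 0.0779 (C). The alternatives tried were edgeR's likelihood ratio test, a replicate block for the experiment in each test, limma 3.58.1 (voom), DESeq2 1.42.0, scaling by RLE or by library totals, different filters, and dropping single libraries or experiments. The fit was tested on simulated data. Plots were drawn with matplotlib 3.10.9.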

Additional observations from a re-analysis of the deposited data

How the results depend on the processing

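The count of the 40 genes called lower in Cxcl12DsRed- cTEC, 6 as reported, was 26 by the likelihood ratio test, 5 with the replicate block, 27 with both, 24 by DESeq2, 0 by limma voom, 10 with no filter and 0 to 1 when any 1 library was left out. It was 0 without experiment A, 0 without B and 0 without C. The share of all genes called lower was 0.173% as reported. In the same order of settings it was 2.12%, 0.135%, 2.67%, 2.08%, 0.00642% and 0.198%. It was 0% to 0.115% without 1 library, 0% without experiments A and B each and 0.0187% without C. With RLE size factors it was 0.193%, with library totals 0.18% and with genes kept at a mean of 1 CPM 0.214%. For the 71 further genes, 1 as reported, the settings in the same order gave 28, 3, 23, 24, 0 and 5, then 2 with RLE size factors, 2 with library totals, 3 with genes kept at a mean of 1 CPM, 0 in every run without 1 library, and 0 without experiments A and B each; 1 gene was called higher by the likelihood ratio test with and without the block and by DESeq2. Over all genes, 97 calls became 880 by the likelihood ratio test, 1060 with the block in it, 73 with the block in the quasi-likelihood test, 1422 by DESeq2, 4 by voom, 168 with no filter, 0 to 139 without 1 library, 0 without experiments A and B each and 35 without C. The median log2 fold change of the 40 genes kept its sign, from −3.10 without Cxcl12DsRed+ C to −6.31 without experiment A. The count free of overlap was 27 to 33 without 1 library, an alternative chosen after seeing the data. Leaving out a library cannot lower this count. Over all genes tested the share free of overlap with Cxcl12DsRed+ higher rose too, from 9.32% with all 6 libraries to between 12.3% and 18.1% without 1. Log2 fold changes turned positive for *Ackr1* with the block (0.99), with the block in the likelihood ratio test (0.57) and by voom (2.47), and for *Sele* with the block (0.10 in both tests). Without 1 library, *Ackr1* ranged from −3.98 to 10.25, *Sele* from −1.66 to 1.06, *Vwf* from −3.18 to 0.51 and *Pgf* from −0.68 to 2.09. Without experiment C, *Selp* was at 0.53, *Sele* at 1.67, *Sox7* at 0.23, *Vwf* at 0.87 and *Rasip1* at 0.052. Where a call or direction changed, the cause was not tested. The replicate block changed the calls of *Cd93*, *Arhgef15*, *Rbp7*, *Kdr* and *Cldn5* in the quasi-likelihood test and of *Aplnr*, which was gained, in the likelihood ratio test, and of no other of the 40. With 3 libraries per subset, depth limits the genes near 0 in Cxcl12DsRed- cTEC, whose levels rest on a few counts.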

Other observations

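Among genes of no list that reached a mean of 10 CPM in the higher subset, the 10 whose log2 levels followed *Cdh5* most closely over the 6 libraries were *Slc28a2*, *Vamp5*, *Crispld1*, *Pitpnc1*, *Gm12002*, *Acot9*, *Akr1c14*, *Arl6ip1*, *Galnt10* and *Ssu2*, with Pearson's r from 0.984 to 0.997. The 39 other endothelial genes had a median r of 0.922 with *Cdh5*, from −0.507 for *Lyve1* to 0.995. These values are a description over 6 libraries that share the 3 experiments, and they carry no test. *Slc28a2*, a nucleoside transporter gene, stood at 0.162, 0 and 0.0246 CPM in Cxcl12DsRed- and 5.84, 9.51 and 72.8 CPM in Cxcl12DsRed+ cTEC. *Akr1c14*, an aldo-keto reductase gene, stood at 0.115, 0.122 and 0.0492 CPM and 10.3, 10.8 and 89.03 CPM. *Crispld1* stood at 0.115, 0 and 0.0738 CPM and 2.80, 3.98 and 33.9 CPM, and *Ssu2* at 0.0231, 0 and 0.0246 CPM and 3.86, 10.6 and 38.4 CPM. *Gm12002*, an RNA gene whose strand cannot be read apart here from any overlapping gene, stood at 0.0231, 0 and 0 CPM and 5.33, 11.3 and 61.7 CPM. The closeness of *Acot9*, at 73.9, 63.01 and 64.1 CPM and 83.8, 94.6 and 106 CPM, and of *Arl6ip1* rests on small differences between libraries.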
